A study of Mus musculus with 9 samples.

Results

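Fatty acids are the main fuel of the adult heart, and 32 genes that bring them into the cardiomyocyte and oxidise them are described here, of 49671 gene identifiers counted in each library. They were taken as a named list, matched by symbol to Ensembl identifiers on the mouse build GRCm38, and all 32 were found and passed the filter on low counts that left 15261 genes for testing. By role they were 4 genes of uptake and binding, 2 of lipid droplet lipolysis, 6 of activation and the carnitine shuttle, 2 that set malonyl-CoA, 7 acyl-CoA dehydrogenases and electron transfer proteins, 7 hydratases, dehydrogenases and thiolases, 3 auxiliary enzymes for unsaturated chains, and the transcription factor gene Esrra. Polyadenylated RNA of mouse left ventricle was sequenced in 9 libraries: 2 from dSG knockout mice given vehicle (KO vehicle), 2 from wild-type mice given vehicle (WT vehicle), 3 from knockout mice given ifetroban (KO ifetroban) and 2 from wild-type mice given ifetroban (WT ifetroban). dSG is the usual short name of delta-sarcoglycan, the product of Sgcd, a membrane protein of the dystrophin-associated complex whose loss causes cardiomyopathy in mice, and ifetroban blocks the receptor for thromboxane. Strain, sex, age, dose and duration are not given in the sources used here, nor is whether each library is a separate animal, so the p-values reflect how far these libraries scatter, which may be technical.

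Long-chain fatty acids reach the cardiomyocyte from lipoprotein triglyceride, split in the capillary by lipoprotein lipase, or bound to albumin, and cross the membrane with the help of CD36 and fatty acid transport proteins. Acyl-CoA synthetases activate them, and carnitine palmitoyltransferase 1, the step that malonyl-CoA inhibits, starts their transfer into mitochondria, where repeated rounds of dehydrogenation, hydration, a second dehydrogenation and thiolysis release acetyl-CoA. In the heart these genes are targets of the nuclear receptors PPARalpha and the estrogen-related receptors with their coactivator PGC-1alpha, and the programme is known to be turned down in many forms of heart failure.

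Counts in genes were 21299748 to 31394548 per library, so counting error is small for all members but Cpt1b, which had 37 to 132 reads. Sgcd was at 7.49 and 12.1 CPM in KO vehicle against 11.1 and 28.9 CPM in WT vehicle, and at 9.77, 16.4 and 18.5 CPM in KO ifetroban against 33.1 and 31.2 CPM in WT ifetroban. CPM stands for a gene's counts scaled to a common total, here the library size after TMM normalization. The lower WT vehicle value lies inside the knockout range, so its source is called the library labelled WT vehicle 1 throughout, and every direction drawn from WT vehicle rests in part on it. KO vehicle 1 stood apart on the first principal component, at -84.4, with KO ifetroban 1 at -34.2 and the other libraries between -2.02 and 38.2. Transcripts with long exonic sequence were relatively low in KO vehicle 1, KO vehicle 2, the library labelled WT vehicle 1 and KO ifetroban 1 (Spearman correlation across genes of -0.29 to -0.42 between a library's deviation and exonic length) and relatively high in the other 5 libraries (0.30 to 0.39). All 20 cardiomyocyte markers passed the filter in this left ventricle tissue, and Myh6, the alpha myosin heavy chain gene, was at 11236 to 24445 CPM.

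Promoter sequence was examined because many of the members are known targets of nuclear receptors. The windows run from 250 bases before to 50 bases after each RefSeq start on GRCm38.p6, 26 of the 32 members had a window, and 3 had more than 1, which made 30 windows. On either strand, the estrogen-related receptor element TCAAGGTCA was in 0 of the 30 windows, against 139 of 32851 windows of all genes (0.423%). The direct repeat AGGTCANAGGTCA, a form that PPARs bind, was also in 0 of 30, against 13 of 32851 (0.0396%). The half-site AGGTCA, which is part of both longer motifs, was in 8 of 30 windows (26.7%) of 7 genes, Acacb, Acadm, Acadvl, Cd36, Cpt1a, Echs1 and Plin5, against 16.3% of all windows. A match is a description of the letters and no match says only that these letters are not in the window. The windows of Acadm and Acacb are shown because both genes are among those with the most different values in KO vehicle and both hold the half-site, which is in capitals as read on the printed strand (TGACCT is its reverse complement). The first of 2 windows of Acsl1, neither of which matched any of the 3 motifs, is shown because Acsl1 was called under more alternative settings than any other member. The window of Hadhb is shown because it spans the start of the neighbouring Hadha, which runs the other way: capitals mark the 85 bases between the annotated GENCODE starts of these genes, which encode the subunits of 1 enzyme. All 4 are 5′ to 3′ on the strand of the gene named. The Acacb window lies inside the annotated gene, which starts at 114146535, and that start has no window here.
Acadm, chr3:153944594-153944893, minus strand: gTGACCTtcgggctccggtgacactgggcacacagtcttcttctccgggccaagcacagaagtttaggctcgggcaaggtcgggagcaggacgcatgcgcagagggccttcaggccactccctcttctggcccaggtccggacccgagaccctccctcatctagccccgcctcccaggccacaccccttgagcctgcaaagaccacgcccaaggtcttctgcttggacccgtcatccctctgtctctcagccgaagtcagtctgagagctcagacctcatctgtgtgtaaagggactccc
Acacb, chr5:114165268-114165567, plus strand: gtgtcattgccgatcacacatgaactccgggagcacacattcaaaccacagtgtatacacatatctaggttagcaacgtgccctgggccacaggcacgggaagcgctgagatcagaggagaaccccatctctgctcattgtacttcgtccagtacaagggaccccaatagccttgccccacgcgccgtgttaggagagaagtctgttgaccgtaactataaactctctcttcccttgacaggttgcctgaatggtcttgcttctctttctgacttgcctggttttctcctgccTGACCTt
Acsl1, chr8:46470787-46471086, plus strand: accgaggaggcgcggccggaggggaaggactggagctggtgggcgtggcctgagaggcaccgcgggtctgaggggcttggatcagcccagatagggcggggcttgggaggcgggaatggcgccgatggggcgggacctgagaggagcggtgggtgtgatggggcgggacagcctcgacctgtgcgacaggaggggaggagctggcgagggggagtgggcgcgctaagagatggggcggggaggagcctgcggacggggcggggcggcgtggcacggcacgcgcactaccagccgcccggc
Hadhb, chr5:30155003-30155302, plus strand: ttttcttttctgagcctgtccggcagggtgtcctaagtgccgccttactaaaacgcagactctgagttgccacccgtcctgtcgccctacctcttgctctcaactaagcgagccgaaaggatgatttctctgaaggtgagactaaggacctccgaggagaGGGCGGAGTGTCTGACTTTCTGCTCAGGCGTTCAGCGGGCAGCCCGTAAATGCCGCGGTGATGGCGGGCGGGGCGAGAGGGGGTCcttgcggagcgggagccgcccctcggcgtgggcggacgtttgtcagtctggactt

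Levels between genes are compared here only per length, as CPM per kilobase of the principal transcript, averaged over the 9 libraries. On that scale Fabp3, the heart's fatty acid binding protein, was the highest member at 2169, followed by Lpl, lipoprotein lipase, at 1466. The next 7 lay close together between 432 and 508: Acaa2, Acadl, Acadm, Cd36, Acadvl, Etfa and Hadhb. Cpt1a, the liver isoform of carnitine palmitoyltransferase 1, was at 11.3. Cpt1b, the muscle isoform, was lowest at 1.09, which was not taken as a usable level. In GENCODE vM21, 2744 of its 3372 exonic bases are shared on the same strand with the read-through gene Gm44502. Reads that fall on 2 counted genes are usually assigned to neither. Gm44502 was not found among the counted identifiers, and whether any Cpt1b reads were lost in this way was not tested. Etfb, the beta subunit of electron transfer flavoprotein, at 32.1, shares 617 of 1164 exonic bases with Gm45233 and carries the same doubt, while its partner Etfa was at 470. Acaa1a has a close paralog, Acaa1b, and reads that match both are not counted.

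**Figure D1:**
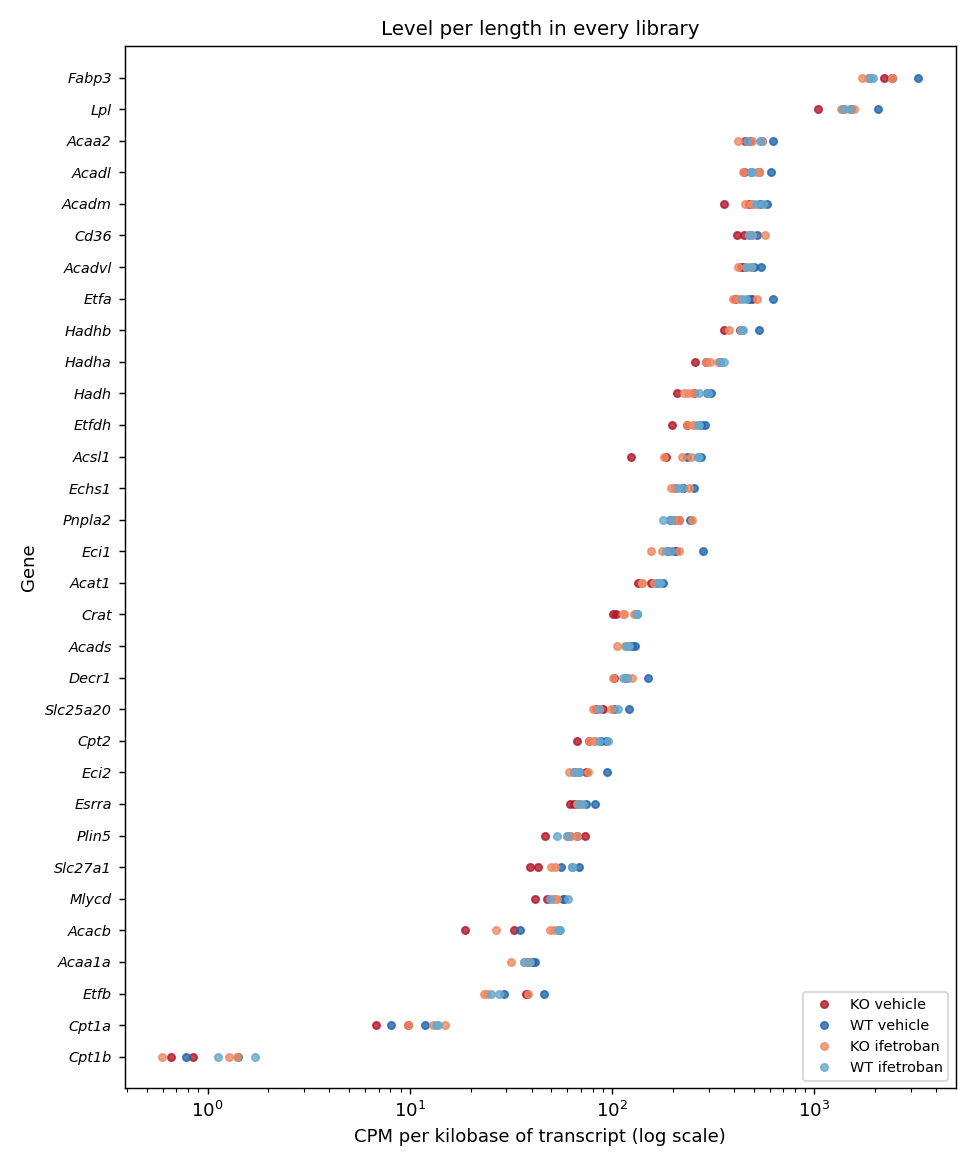
Level of each of the 32 members in every library, as CPM per kilobase of principal transcript on a log axis, genes ordered by their mean over 9 libraries and coloured by group. Fabp3 (mean 2169) and Lpl (1466) stand above the rest, and Cpt1a (11.3) and Cpt1b (1.09, a doubtful level) below.

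In KO vehicle against WT vehicle, the question is what the knockout changes in these genes without drug. Of the 32 members, 31 had a negative log2 fold change, against 51.5% of all 15261 genes, and their median was -0.30 against -0.01 for all genes. On a scale set by the cardiomyocyte markers the median of the members was -0.07 with 22 of 32 negative, and that of all genes 0.22, since this scale shifts all genes alike. None passed edgeR's quasi-likelihood test with Benjamini-Hochberg adjustment, which called 0.0524% of all genes, and none passed DESeq2, which called 2.32%. At an unadjusted p under 0.05, 6 members were lower (Slc27a1, Acsl1, Acadm, Crat, Etfdh and Hadh; 4.25% of all genes were lower by this rule) and 0 higher (8.26% of all genes). In 20 members both KO vehicle values lay below both WT vehicle values, against 18.2% of all genes, and in 0 above, against 16.8%. The member medians of the libraries, as log2 deviation from each gene's mean over 9 libraries, were -0.20 and -0.05 in KO vehicle against 0.22 and 0.09 in WT vehicle, so each of the 4 libraries lay on its group's side of 0. Without KO vehicle 1 and the library labelled WT vehicle 1, the median difference was -0.18, with 23 of 32 negative. That leaves 1 library in each vehicle group. Long transcripts were low in KO vehicle 2 and high in WT vehicle 2, so genotype and length trend cannot be told apart there.

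**Figure D2:**
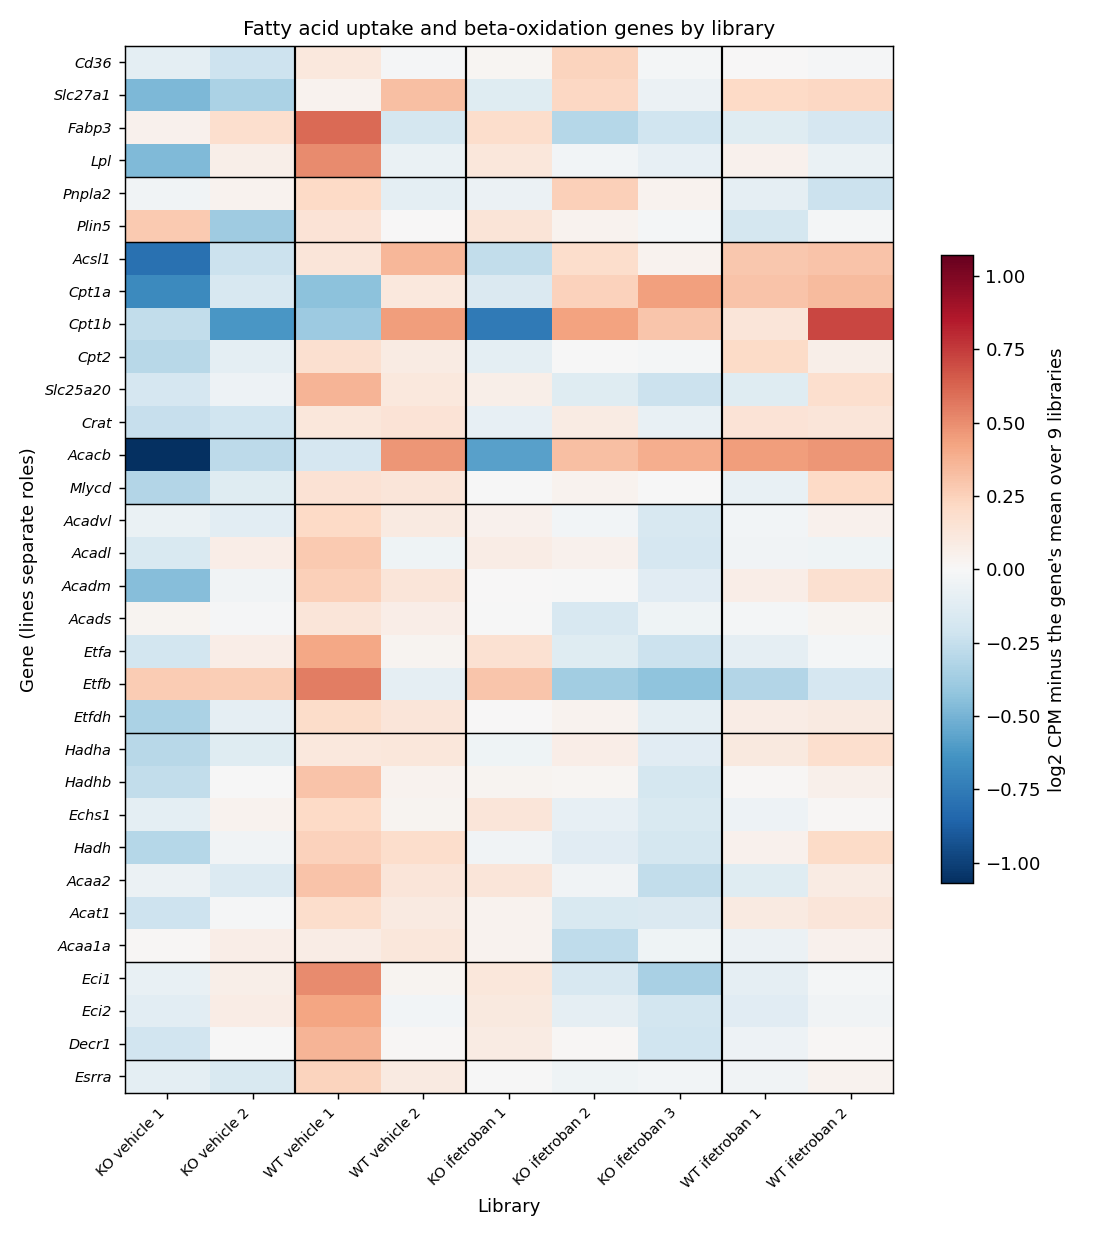
Log2 CPM of each member minus that gene's mean over the 9 libraries, genes in rows grouped by role and libraries in columns grouped by genotype and treatment. The median over members is lowest in KO vehicle 1 (-0.20) and highest in the library labelled WT vehicle 1 (0.22).

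Summed markers of several cell types also differed in value between genotypes. The 20 cardiomyocyte markers summed to 74198 and 83710 CPM in KO vehicle against 94102 and 90702 CPM in WT vehicle, and to 79073 to 85545 CPM in KO ifetroban against 90623 and 93986 CPM in WT ifetroban. The 14 macrophage markers summed to 874 and 628 CPM in KO vehicle against 419 and 357 CPM in WT vehicle, and to 631 to 688 CPM in KO ifetroban against 389 and 293 CPM in WT ifetroban. The 11 fibroblast markers summed to 2883 and 3784 CPM in KO vehicle against 2168 and 2454 CPM in WT vehicle, and to 2586 to 3625 CPM in KO ifetroban against 2346 and 2509 CPM in WT ifetroban. Knockout libraries were thus below all wild-type libraries for the cardiomyocyte sum and above all of them for the macrophage and fibroblast sums. The part of this in the member values was not tested. The cardiomyocyte sum, which also sets the marker scale, weighs its highest markers most. For Myh6 and Ttn the 4 lowest values were those of the 4 libraries in which long transcripts were low, and Tnnt2 overlapped between genotypes. In 5 of the 20 cardiomyocyte markers both KO vehicle values lay below both WT vehicle values (18.2% of all genes), and in 0 above (16.8%). In bulk tissue, fewer cardiomyocytes and less RNA of these genes per cardiomyocyte cannot be told apart. The 14 endothelial markers, which matter for Lpl and Cd36, summed to 1690 and 1279 CPM in KO vehicle against 1260 and 1544 CPM in WT vehicle, with overlap. Of 12 adipocyte markers 5 passed the filter, and those summed to 558 and 511 CPM in KO vehicle against 614 and 390 CPM in WT vehicle, with overlap. Most of that sum was Fabp4, at 495 and 462 CPM in KO vehicle and 557 and 331 CPM in WT vehicle. In KO vehicle 4 of the 5 were positive, with a median of 0.11. The defining Adipoq was at most 0.278 CPM in any library and 0 in all 4 wild-type libraries. Of 9 hepatocyte markers 3 passed, and those summed to 69.2 CPM in KO vehicle 1 against 0.832 to 6.59 CPM in the other 8 libraries.

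**Figure D3:**
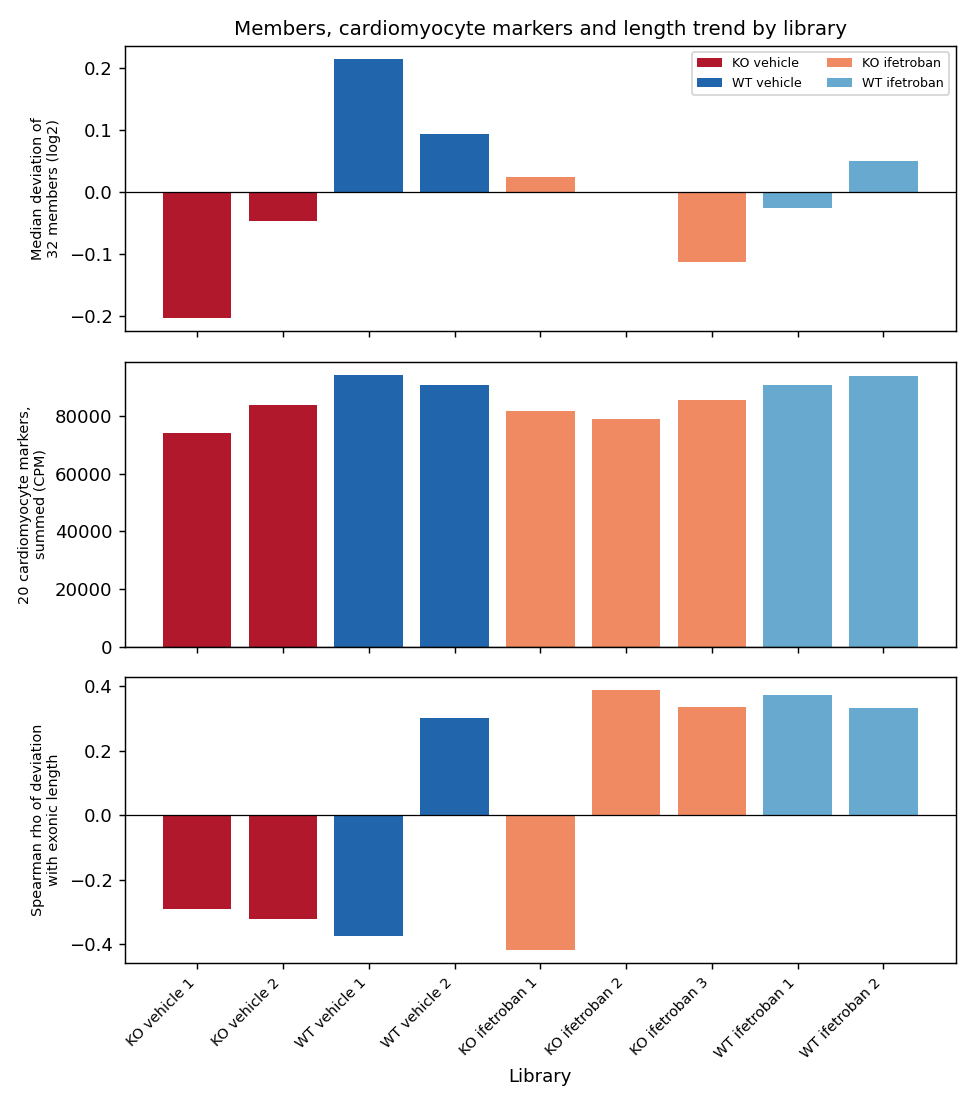
Per library, the median log2 deviation of the 32 members (top), the summed CPM of 20 cardiomyocyte markers (middle) and the Spearman correlation across genes between the library's deviations and exonic length (bottom). The 5 knockout libraries have the lowest marker sums, and the member median is lowest in KO vehicle 1 (-0.20) and highest in the library labelled WT vehicle 1 (0.22).

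The 4 genes of uptake and binding were negative in KO vehicle with a median of -0.32, which was -0.09 with 2 of 4 negative on the cardiomyocyte marker scale. Slc27a1 had the most negative value. It encodes the fatty acid transport protein FATP1 (ENSMUSG00000031808, chr8:71568882-71587302, plus strand). In each list of values that follows, libraries are in the order of their replicate numbers, so the first WT vehicle value is from the library labelled WT vehicle 1. Slc27a1 was at 109 and 120.5 CPM in KO vehicle against 156 and 191 CPM in WT vehicle, and at 139, 178 and 145 CPM in KO ifetroban against 176 and 177 CPM in WT ifetroban. The KO vehicle values lie below all 7 others. The log2 fold change in KO vehicle was -0.59 ± 0.18 (standard error; adjusted p = 0.280, edgeR's quasi-likelihood test).

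Cd36, the membrane fatty acid translocase, was at 1519 and 1405 CPM in KO vehicle against 1768 and 1626 CPM in WT vehicle, and at 1661, 1928 and 1616 CPM in KO ifetroban against 1645 and 1621 CPM in WT ifetroban. The KO vehicle values were the lowest of the 9, with a log2 fold change of -0.22 ± 0.16 that turned to 0.02 on the cardiomyocyte marker scale. Lpl, which is made by cardiomyocytes and works in the capillary, was at 4281 and 6209 CPM in KO vehicle against 8443 and 5664 CPM in WT vehicle, and at 6461, 5812 and 5587 CPM in KO ifetroban against 6152 and 5669 CPM in WT ifetroban. The vehicle groups overlapped for Lpl, and the log2 fold change of -0.43 ± 0.24 became 0.14 without KO vehicle 1 and the library labelled WT vehicle 1, which were its lowest and highest values. Fabp3 was at 1814 and 1980.4 CPM in KO vehicle against 2665 and 1536 CPM in WT vehicle, and at 1997, 1417 and 1507 CPM in KO ifetroban against 1600.4 and 1548 CPM in WT ifetroban. The highest Fabp3 value was from the library labelled WT vehicle 1. The 4 highest Fabp3 values were those of the 4 libraries in which long transcripts were low. The groups overlapped in each of the 4 comparisons made between 2 groups.

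The 2 genes of droplet lipolysis had a median of -0.08 in KO vehicle, which became 0.16 on the cardiomyocyte marker scale. Pnpla2 encodes adipose triglyceride lipase, which takes the first fatty acid off stored triglyceride, and was at 366 and 385 CPM in KO vehicle against 436 and 349 CPM in WT vehicle, and at 359, 448 and 385 CPM in KO ifetroban against 351 and 320.3 CPM in WT ifetroban. Plin5 encodes perilipin 5, which ties lipid droplets to mitochondria, and was at 146 and 92.3 CPM in KO vehicle against 133 and 121 CPM in WT vehicle, and at 132, 124 and 118.8 CPM in KO ifetroban against 106 and 118.6 CPM in WT ifetroban. Both genes overlapped between the vehicle groups, and under ifetroban all 3 KO values were above both WT values, by 0.24 ± 0.17 and 0.16 ± 0.20 on the log2 scale. They were the 2 of 32 members for which this held, against 16.1% of all genes.

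The genes of activation and the carnitine shuttle were all 6 negative in KO vehicle, with a median of -0.36, and all 6 also on the cardiomyocyte marker scale, with -0.13. Acsl1, the main long-chain acyl-CoA synthetase of the heart (ENSMUSG00000018796, chr8:46471037-46536051, plus strand), was at 484 and 716 CPM in KO vehicle against 918 and 1074 CPM in WT vehicle, and at 700.2, 959 and 862 CPM in KO ifetroban against 1029.8 and 1037 CPM in WT ifetroban. Knockout values lay below wild-type values under both treatments, without overlap. The log2 fold change was -0.73 ± 0.23 in KO vehicle (adjusted p = 0.280, edgeR's quasi-likelihood test) and -0.30 ± 0.20 in KO ifetroban (adjusted p = 0.979, same test). With no filter on low counts, and also without KO vehicle 2, edgeR called Acsl1 in KO vehicle (adjusted p = 0.0203 and 0.0262; over the other 17 alternatives it was 0.0885 to 1). These settings also raised the calls over all genes, to 1195 with no filter and 1734 without KO vehicle 2, against 8.

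Crat, carnitine acetyltransferase, which exports surplus acetyl groups (ENSMUSG00000026853, chr2:30400471-30415813, minus strand), was at 429 and 440.1 CPM in KO vehicle against 552 and 562 CPM in WT vehicle, and at 479, 539.9 and 482 CPM in KO ifetroban against 562 and 557 CPM in WT ifetroban. It too had no overlap between genotypes under either treatment, with log2 fold changes of -0.36 ± 0.15 in KO vehicle and -0.16 ± 0.14 in KO ifetroban. Cpt1a was at 29.5 and 42.1 CPM in KO vehicle against 34.8 and 51.2 CPM in WT vehicle, and at 42.4, 56.1 and 64.2 CPM in KO ifetroban against 58.4 and 59.7 CPM in WT ifetroban. Genotypes overlapped for Cpt1a, and its log2 fold change of -0.27 ± 0.26 in KO vehicle became 0.03 without WT vehicle 2 and 0.02 with a term for the length trend. The 4 lowest values of Cpt1a, and also of Cpt1b, were those of the 4 libraries in which long transcripts were low. Cpt1b, with the doubt given above, was at 2.47 and 1.91 CPM in KO vehicle against 2.26 and 4.10 CPM in WT vehicle, and at 1.73, 4.05 and 3.68 CPM in KO ifetroban against 3.26 and 4.95 CPM in WT ifetroban. The inner carnitine palmitoyltransferase gene Cpt2 and the carnitine-acylcarnitine carrier gene Slc25a20 had log2 fold changes of -0.33 ± 0.16 and -0.36 ± 0.18 in KO vehicle, both without overlap.

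Malonyl-CoA, the inhibitor of carnitine palmitoyltransferase 1, is made in the heart by the acetyl-CoA carboxylase that Acacb encodes and removed by malonyl-CoA decarboxylase, the product of Mlycd. Acacb (ENSMUSG00000042010, chr5:114146535-114250761, plus strand) was at 166 and 286 CPM in KO vehicle against 308 and 482 CPM in WT vehicle, and at 233, 435 and 455 CPM in KO ifetroban against 475 and 484 CPM in WT ifetroban. Its KO vehicle values were below both WT vehicle values, with the most negative log2 fold change of the 32, -0.81 ± 0.36 (adjusted p = 0.399, edgeR's quasi-likelihood test; 0.0095 with no filter on low counts, where 1195 of all genes were called, and 0.0896 to 1 over the other 18 alternatives). The 4 lowest Acacb values were those of the 4 libraries in which long transcripts were low. With 8788 bases its principal transcript is the longest of the members. In exonic length, on which the trend was measured, Acsl1 (10483) and Lpl (10478) exceed its 9632 bases. The highest Lpl value was from the library labelled WT vehicle 1, which is among those 4 libraries. With treatments pooled, the Acacb difference between the KO mean and the WT value was -0.47 within those 4 libraries (3 KO, 1 WT). Within the other 5 (2 KO, 3 WT) it was -0.11. Mlycd (ENSMUSG00000074064, chr8:119394878-119411102, plus strand) was at 88.9 and 101 CPM in KO vehicle against 123 and 121 CPM in WT vehicle, and at 110.3, 114 and 110.4 CPM in KO ifetroban against 105 and 128 CPM in WT ifetroban. The enzyme that makes malonyl-CoA and the one that removes it thus had negative values together in KO vehicle, with -0.36 ± 0.16 for Mlycd.

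**Figure D4:**
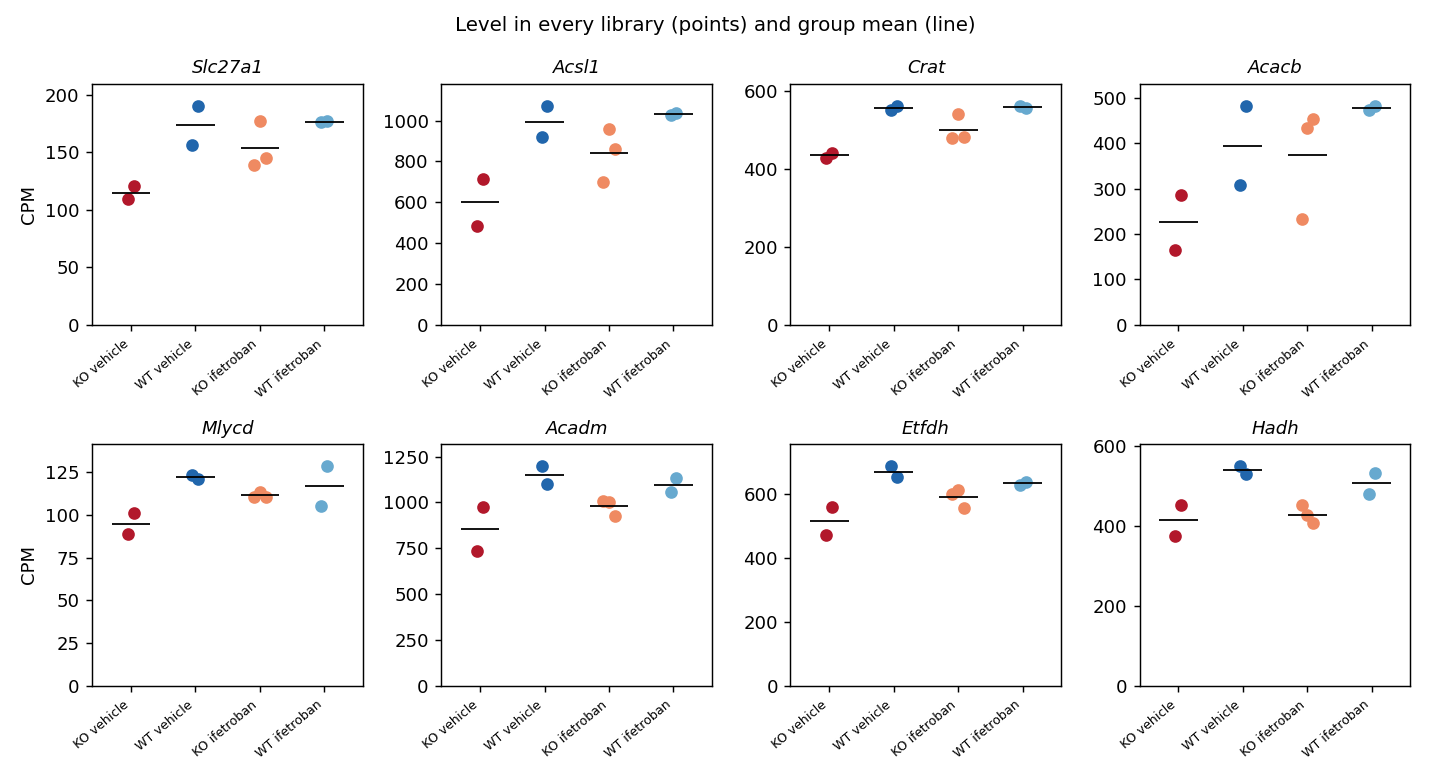
CPM in every library (points) with the group mean (line), from an axis that starts at 0, for the 8 members with the smallest p in KO vehicle against WT vehicle. In all 8 both KO vehicle points lie below both WT vehicle points, as in 20 of the 32 members and 18.2% of all genes. The 8 were picked by p in this same comparison, so their count is not a separate result. The KO ifetroban points of Acacb split into 233 CPM and 435 to 455 CPM.

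Of the 7 acyl-CoA dehydrogenases and electron transfer proteins, 6 were negative in KO vehicle, with a median of -0.25, and 4 on the cardiomyocyte marker scale, with -0.02. Etfb, with its shared exons, was at 0.01. The dehydrogenases differ in the chain length they act on. Acadm, for medium chains (ENSMUSG00000062908, chr3:153922357-153944632, minus strand), was at 733 and 977 CPM in KO vehicle against 1197 and 1098 CPM in WT vehicle, and at 1005, 1002 and 924 CPM in KO ifetroban against 1054 and 1134 CPM in WT ifetroban. Genotypes did not overlap under either treatment, with log2 fold changes of -0.42 ± 0.18 in KO vehicle (adjusted p = 0.380, edgeR's quasi-likelihood test) and -0.16 ± 0.16 in KO ifetroban (adjusted p = 0.979, same test). Acadvl, for very long chains, was at 966 and 943 CPM in KO vehicle against 1181 and 1089 CPM in WT vehicle, and at 1052, 997 and 903 CPM in KO ifetroban against 996 and 1051 CPM in WT ifetroban. Its vehicle groups did not overlap and its ifetroban groups did, with -0.25 ± 0.15 in KO vehicle. Acadl for long and Acads for short chains had the smallest differences of the 4, at -0.17 ± 0.18 and -0.09 ± 0.15.

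Electrons from these dehydrogenases pass through the flavoprotein of Etfa and Etfb to the ubiquinone oxidoreductase of Etfdh. Etfdh (ENSMUSG00000027809, chr3:79603788-79629500, minus strand) was at 471 and 559 CPM in KO vehicle against 685 and 651 CPM in WT vehicle, and at 599, 612 and 554 CPM in KO ifetroban against 629 and 637 CPM in WT ifetroban. Knockout values were below wild-type values under both treatments without overlap, with log2 fold changes of -0.38 ± 0.16 in KO vehicle and -0.10 ± 0.14 in KO ifetroban. Etfb was at 33.8 and 33.6 CPM in KO vehicle against 40.9 and 26.1 CPM in WT vehicle, and at 34.4, 21.6 and 20.7 CPM in KO ifetroban against 22.5 and 24.6 CPM in WT ifetroban. The 4 highest Etfb values, 33.6 to 40.9 CPM, were those of the 4 libraries in which long transcripts were low, the reverse of Acacb. With 893 bases the Etfb transcript is the second shortest of the members, after that of Fabp3 with 823.

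All 7 hydratases, dehydrogenases and thiolases were negative in KO vehicle, with a median of -0.30, and 5 on the cardiomyocyte marker scale, with -0.08. Hadha and Hadhb encode the alpha and beta subunits of the mitochondrial trifunctional protein, which carries out the last steps on long chains. Hadha (ENSMUSG00000025745, chr5:30118304-30155162, minus strand) was at 1035 and 1162 CPM in KO vehicle against 1375 and 1378 CPM in WT vehicle, and at 1227, 1336 and 1164 CPM in KO ifetroban against 1363 and 1433 CPM in WT ifetroban. The neighbours that share the promoter region printed above had similar log2 fold changes in KO vehicle, -0.33 ± 0.16 for Hadha and -0.30 ± 0.17 for Hadhb, both without overlap. Hadh, the dehydrogenase for medium and short chains (ENSMUSG00000027984, chr3:131233419-131272101, minus strand), was at 375 and 452 CPM in KO vehicle against 548 and 528 CPM in WT vehicle, and at 451, 426 and 405 CPM in KO ifetroban against 478 and 532 CPM in WT ifetroban. All 5 KO values of Hadh lay below all 4 WT values, with log2 fold changes of -0.38 ± 0.16 in KO vehicle and -0.24 ± 0.15 in KO ifetroban (adjusted p = 0.385 and 0.979, edgeR's quasi-likelihood test). Acat1, the thiolase that also serves ketone use, was at 458 and 531 CPM in KO vehicle against 610.0 and 569.9 CPM in WT vehicle, and at 549.8, 476 and 480.1 CPM in KO ifetroban against 572 and 586 CPM in WT ifetroban. Its knockout values, too, were all below its wild-type values. The matrix thiolase gene Acaa2, the enoyl-CoA hydratase gene Echs1 and the peroxisomal thiolase gene Acaa1a had log2 fold changes of -0.33 ± 0.18, -0.16 ± 0.17 and -0.06 ± 0.16 in KO vehicle.

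The 3 auxiliary enzymes, which move or reduce double bonds so that unsaturated chains can enter the cycle, had negative values in KO vehicle (2 of 3 on the cardiomyocyte marker scale) and were highest in the library labelled WT vehicle 1. Eci1, an enoyl-CoA isomerase, was at 214 and 235 CPM in KO vehicle against 320.4 and 229.6 CPM in WT vehicle, and at 244, 199.8 and 177 CPM in KO ifetroban against 210.3 and 222 CPM in WT ifetroban. The vehicle groups overlapped for Eci1. The second isomerase gene, Eci2, and the dienoyl-CoA reductase gene Decr1 had log2 fold changes of -0.23 ± 0.20 and -0.30 ± 0.18. Esrra, the gene of the estrogen-related receptor alpha that drives many genes of this list, was at 145 and 139 CPM in KO vehicle against 184 and 166 CPM in WT vehicle, and at 156, 151 and 153 CPM in KO ifetroban against 152 and 160.0 CPM in WT ifetroban. Its vehicle groups did not overlap, with -0.30 ± 0.15.

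Under ifetroban the median of the members was nearer to 0, while the interaction test given further on called none of them. In KO ifetroban against WT ifetroban, 24 of 32 members were negative, with a median of -0.07 against 0.01 for all genes; on the cardiomyocyte marker scale the direction flipped, to a median of 0.10 with 7 of 32 negative, while all genes had 0.18. Without WT ifetroban 2 the median was -0.03, and without KO ifetroban 1 it was -0.11. No member passed edgeR's test (0.0131% of all genes did) or DESeq2 (0.45% of all genes), and 0 had an unadjusted p under 0.05 in edgeR (4.7% of all genes, in either direction). All 3 KO values lay below both WT values in 9 members, against 12.9% of all genes, and above them in Pnpla2 and Plin5, against 16.1%. The 9 were Acsl1, Cpt2, Crat, Acacb, Acadm, Etfdh, Hadha, Hadh and Acat1. Averaged over both treatments, 29 of 32 members were negative in KO with a median of -0.18 (all genes, 0.00), and on the cardiomyocyte marker scale the median was 0.02, with 0.20 for all genes. Here edgeR called 0 members and 0.537% of all genes, DESeq2 called Acsl1 (adjusted p = 0.0348) and 4.77% of all genes, and at an unadjusted p under 0.05 in edgeR 9 members were lower (5.94% of all genes) and 0 higher (10.6%). The averaged log2 fold changes were -0.51 ± 0.15 for Acsl1, -0.40 ± 0.12 for Slc27a1 and -0.31 ± 0.11 for Hadh (adjusted p = 0.155, 0.174 and 0.218, edgeR's quasi-likelihood test).

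**Figure D5:**
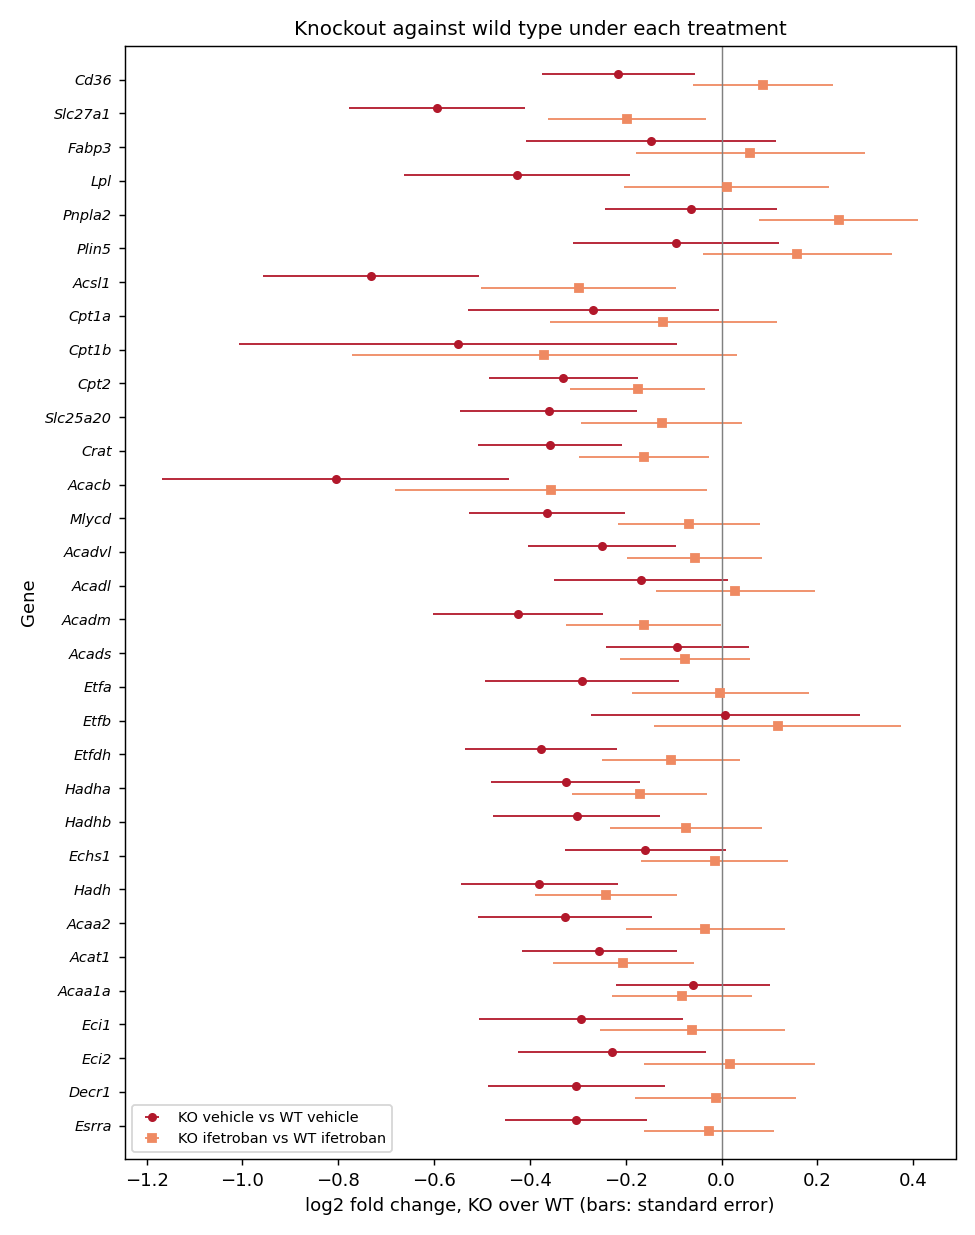
Log2 fold change of KO over WT for each member under vehicle (circles) and under ifetroban (squares), with standard errors from edgeR. Under vehicle 31 of 32 points are left of 0 with a median of -0.30, and under ifetroban 24 of 32 with a median of -0.07.

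The difference between KO and WT libraries was also taken within the libraries that share a length trend, with treatments pooled. The set in which long transcripts were low is KO vehicle 1 and 2, KO ifetroban 1 and the library labelled WT vehicle 1. The other set is KO ifetroban 2 and 3, WT vehicle 2 and both WT ifetroban libraries. It has no KO vehicle library, and treatment is unequally mixed with genotype in both sets. In the 4 libraries in which long transcripts were low (3 KO, 1 WT), the median over members of the KO mean minus the WT value was -0.33, with 31 of 32 negative, against -0.02 over all genes. In the other 5 (2 KO, 3 WT) it was -0.13, with 28 of 32 negative, against 0.00. The first value rests on 1 WT library, the one labelled WT vehicle 1. For Slc27a1 the differences were -0.35 and -0.17, for Acsl1 -0.56 and -0.20, for Hadh -0.37 and -0.30, and for Acadm -0.42 and -0.19, each negative in both sets. For Lpl they were -0.60 and -0.03, and for Cd36 -0.21 and 0.11.

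The effect of ifetroban within the knockout asks whether the drug moves these genes in knockout ventricle. In KO ifetroban against KO vehicle, 24 of 32 members were positive, with a median of 0.08 against -0.02 for all genes. On the cardiomyocyte marker scale 15 of 32 were negative, with a median of 0.02 against -0.08 for all genes. EdgeR called 0 members and 0% of all genes, and DESeq2 called 0 members and 0.011% of all genes. At an unadjusted p under 0.05 in edgeR, 3 members were higher (Slc27a1, Cpt1a and Acsl1, against 2.59% of all genes) and 0 lower (2.42%). With a term for the length trend the median was 0.17, and 0 members had an unadjusted p under 0.05 in edgeR. All 3 KO ifetroban values lay above both KO vehicle values in 8 members, against 8.38% of all genes, and below them in 0, against 7.58%. The 8 were Cd36, Slc27a1, Cpt1a, Cpt2, Crat, Mlycd, Hadha and Esrra. The log2 fold changes were 0.73 ± 0.34 for Acacb, 0.60 ± 0.24 for Cpt1a, 0.49 ± 0.21 for Acsl1 and 0.42 ± 0.17 for Slc27a1, each with an adjusted p of 0.688 in edgeR's quasi-likelihood test; with no filter on low counts, where edgeR called 428 of all genes against 0, that of Acacb was 0.0194, and over its other 18 alternatives 0.139 to 1. Both KO vehicle libraries and KO ifetroban 1 are among the libraries in which long transcripts were low. The median was 0.02 without KO vehicle 1 (0.02 for all genes) and 0.17 without KO vehicle 2 (0.00 for all genes). It was 0.03 without KO ifetroban 1 (-0.03 for all genes) and 0.14 without KO ifetroban 3 (-0.02 for all genes). Without KO vehicle 1 and the library labelled WT vehicle 1 it was 0.02 (0.02 for all genes), with 16 of 32 negative.

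In WT ifetroban against WT vehicle, 24 of 32 members were negative, with a median of -0.13 against -0.02 for all genes. EdgeR called 0 members and 0% of all genes, DESeq2 0 members and 0% of all genes, and at an unadjusted p under 0.05 edgeR had 0 members and 1.26% of all genes. Both WT ifetroban values lay below both WT vehicle values in 13 members, against 16.5% of all genes, and above them in Cpt1a, against 14.9%. The members with the smallest p were Etfb, Cpt1a, Eci1 and Fabp3, at -0.51 ± 0.28, 0.46 ± 0.26, -0.35 ± 0.21 and -0.42 ± 0.26 on the log2 scale (adjusted p = 0.999 for each, edgeR's quasi-likelihood test). Without the library labelled WT vehicle 1 the median was -0.04, and Fabp3 had 0.04. Without WT ifetroban 1 the median was -0.07.

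Whether ifetroban acted differently in the 2 genotypes was tested as the interaction, the drug's log2 fold change in KO minus that in WT. It was positive in 31 of 32 members, with a median of 0.23 against 0.03 for all genes (0.17 and -0.03 on the cardiomyocyte marker scale). No member passed edgeR (0% of all genes) or DESeq2 (0% of all genes), and 0 members had an unadjusted p under 0.05 in edgeR, against 1.38% of all genes in either direction. Slc27a1 had 0.40 ± 0.25 and Acsl1 0.43 ± 0.30 on the log2 scale. The median was 0.15 without KO vehicle 1 and 0.14 without the library labelled WT vehicle 1. Without both, it was 0.03 against 0.03 for all genes, and 12 of 32 were negative. The 4 comparisons of 2 groups share libraries in pairs (KO vehicle is in 2 of them, as is each other group), so their values are given side by side and not as independent results.

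Other genes of the pathway were taken from lists, and edgeR's test called none of the genes of any list in KO vehicle against WT vehicle. On the cardiomyocyte marker scale the values of every list shift up with those of all genes. Of 20 regulators 13 were negative, with a median of -0.41, which was -0.20 on that scale. Ppargc1a, which encodes the coactivator PGC-1alpha, was at 36.8 and 82.0 CPM in KO vehicle against 110.5 and 116 CPM in WT vehicle, and at 78.3, 107 and 101 CPM in KO ifetroban against 116 and 106 CPM in WT ifetroban. Its KO vehicle values, like those of the estrogen-related receptor gamma gene Esrrg, did not overlap WT vehicle, with log2 fold changes of -0.93 ± 0.32 and -0.90 ± 0.32 and adjusted p of 0.314 and 0.333 by edgeR's quasi-likelihood test. The retinoid X receptor gamma gene Rxrg was at -0.71 ± 0.26 on the same scale. For Esrrg, every library in which long transcripts were low had a lower value than all other libraries. Of 15 genes in a loose list around mitochondrial beta-oxidation, some of them for branched chains, 14 were negative with a median of -0.29 (-0.07 on the marker scale). They were led by Acad10 at -0.88 ± 0.27, Ivd, the isovaleryl-CoA dehydrogenase gene, at -0.44 ± 0.16 and Acadsb at -0.50 ± 0.20. That list also holds Decr2, Nudt7, Nudt19, Suclg2 and Gcdh, which are not enzymes of mitochondrial fatty acid oxidation. Some genes are shared between lists, such as Decr2 with the peroxisomal list and Ech1 and Acot2 with the PPAR targets below. Of 15 peroxisomal genes 13 were negative, with a median of -0.22 (7 negative on the marker scale), and Abcd3, a peroxisomal fatty acyl-CoA transporter gene, was at -0.49 ± 0.16. All 17 genes of the tricarboxylic acid cycle, which takes up the acetyl-CoA, were negative, with a median of -0.21 that turned to 0.02 on the marker scale, and Sdha, a succinate dehydrogenase subunit gene, was at -0.42 ± 0.16. The cardiomyocyte markers themselves had a median of -0.18, with 17 of 20 negative.

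The remaining lists were mixed in the same comparison. Of 13 tested PPAR targets that are not members, 6 were negative, with a median of 0.06. Ucp3, the uncoupling protein gene of muscle mitochondria, was at 7.72 and 16.0 CPM in KO vehicle against 33.8 and 25.2 CPM in WT vehicle, and at 32.8, 35.1 and 35.8 CPM in KO ifetroban against 46.5 and 37.0 CPM in WT ifetroban. Each KO vehicle value of Ucp3 was below the other 7, with log2 fold changes of -1.31 ± 0.31 against WT vehicle and, for KO ifetroban against KO vehicle, 1.54 ± 0.29 (adjusted p = 0.222 and 0.688, edgeR's quasi-likelihood test). Angptl4, which encodes an inhibitor of lipoprotein lipase, was at 73.0 and 4.09 CPM in KO vehicle against 4.36 and 2.01 CPM in WT vehicle, so 1 library, KO vehicle 1, made the difference. Of 19 other genes of uptake and activation 8 were negative, with a median of 0.11, and of 12 genes of malonyl-CoA and fatty acid synthesis 4 were negative, with a median of 0.07. Of 7 genes of ketone body use 6 were negative, with a median of -0.07 that turned to 0.15 on the marker scale. Of 17 genes of triglyceride and lipid droplets 11 were negative, with a median of -0.22 that turned to 0.01 on the marker scale, and Lpin1, a phosphatidate phosphatase gene, was at 111 and 188 CPM in KO vehicle against 247 and 284 CPM in WT vehicle. Ppara, the PPARalpha gene, was among the 2 regulators with the smallest p in KO ifetroban against KO vehicle. It was at 18.1, 47.4 and 54.3 CPM in KO ifetroban against 9.17 and 21.8 CPM in KO vehicle, with overlap between the groups. In WT vehicle it was at 25.0 and 52.9 CPM, and in WT ifetroban at 61.2 and 71.2 CPM. The other regulator, Ppargc1b, which encodes PGC-1beta, was at 25.7, 39.4 and 27.5 CPM in KO ifetroban against 18.2 and 21.1 CPM in KO vehicle, without overlap. In WT vehicle Ppargc1b was at 21.4 and 31.2 CPM, and in WT ifetroban at 34.4 and 43.1 CPM. For both genes the 4 lowest values were those of the 4 libraries in which long transcripts were low.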

How the data were processed

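The values are whole-number counts of reads per gene, not normalized, that the authors deposited for every library, made with STAR 2.5.2b and HTSeq on GRCm38 per the submitters' processing notes; no annotation release is given in the sources used here. Each file holds 3 count columns, without strand and for each strand. The reverse-strand column, which had 14.5 times as many counts as the forward one, was used, which separates antisense neighbours. Rows that name no gene held 26.6% to 31.9% of the reads and were left out. Of 49671 identifiers, 49412 matched GENCODE vM21.

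Groups and replicate numbers came from the sample titles. Within groups, each of the 6 library pairs differed beyond sampling noise (chi-square over degrees of freedom, 13.8 to 84.1). Genes kept by filterByExpr were tested with edgeR 4.0.16 (TMM, quasi-likelihood F test, 1 coefficient per group, all 9 libraries sharing the spread) in R 4.3.3, two-sided, with Benjamini-Hochberg adjustment over all 15261 genes and a threshold of 0.05; DESeq2 1.42.0 was an alternative. Standard errors were derived from each fold change and its F statistic and are approximate. Log2 CPM used a prior count of 2. Per-library values are given for 13 members chosen by name and for those with the smallest p in each comparison of 2 groups, and up to 3 genes are named from each other list. Scripts were tested on simulated counts. Alternatives were other normalizations, no filter, the unstranded column, length offsets, a term for the length trend, a scale set by cardiomyocyte markers, a replicate block, only the compared groups, and leaving out libraries. The members, lists and doubted libraries were chosen with earlier results of these data known.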

Additional observations from a re-analysis of the deposited data

How the results depend on the processing

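Of 112 alternative values of the median log2 fold change of members, 99 moved by less than 1 SD of the library medians. This SD was pooled within groups (0.0817). Of 112 counts of called members 105 stayed at 0. The median in KO vehicle against WT vehicle was negative in all 19 alternatives. It was -0.0717 on the cardiomyocyte marker scale, -0.18 without the 2 doubted libraries (KO vehicle 1 and the library labelled WT vehicle 1), and -0.39 to -0.22 with each library left out. Without the 2 doubted libraries each vehicle group keeps 1 library, and those remaining have opposite length trends. On the cardiomyocyte marker scale the median was 0.10 in KO ifetroban against WT ifetroban and 0.018 averaged over treatments. For KO ifetroban against KO vehicle it was 0.17 with a term for the length trend and 0.0225 to 0.17 leaving out each library. For WT ifetroban against WT vehicle it was -0.0444 without both doubted libraries and -0.16 to -0.0439 leaving out each. The interaction was 0.028 without both and 0.14 to 0.32 leaving out each. With no filter on low counts, edgeR called 2 members in KO vehicle against WT vehicle (and 1195 of all genes, against 8 with the filter) and 2 averaged over treatments (1684 of all genes, against 82; Acsl1 and Acacb in each), and 1 (Acacb) in KO ifetroban against KO vehicle (428 of all genes, against 0). Leaving out each library gave 0 to 1 calls in KO vehicle against WT vehicle (Acsl1, without KO vehicle 2, where 1734 of all genes were called) and 0 to 2 averaged over treatments (Acsl1 and Acadm, without KO vehicle 2, where 2098 were). DESeq2 called 1 averaged over treatments (Acsl1, among 745 of all genes). The cause of these changes was not tested. In KO vehicle against WT vehicle, 31 of 32 members were negative, 22 on the marker scale and 23 without both doubted libraries. Single genes were followed for 32 pairs of a member and a comparison, not for every value given, and of those 603 values 590 kept their direction and their side of the threshold. Among them, the reversed ones were Cd36 (0.0207 on the marker scale), Lpl (0.14 without both doubted libraries) and Cpt1a (0.0236 with the length term, and -0.56 without KO vehicle 2 to 0.0291 without WT vehicle 2) in KO vehicle against WT vehicle, and Fabp3 in WT ifetroban against WT vehicle (-0.74 without WT vehicle 2 to 0.0382 without the library labelled WT vehicle 1, and 0.0377 without both).

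With the replicate block the median was -0.30 in KO vehicle against WT vehicle and -0.16 averaged over treatments, where 1 member, Acacb, was called (adjusted p = 0.0474, edgeR) among 531 of all genes, against 82 with no block. The labels share only a number, and deviations of same-numbered libraries correlated at 0.02 to 0.35 across genes. Where a left-out library leaves 1 in a group, that library is assumed to vary like the others. The block changed no other call of a member. Depth limits Cpt1b, with 37 to 132 reads.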
